A study of Mus musculus with 9 samples.

Results

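The BCL2 family of apoptosis regulators was examined in MIN6 cells cultured for 24 h with 0.1, 1 or 20 times the standard arginine concentration (low, standard and high arginine). The 10 genes were chosen by name, out of 54876 genes in the table: the anti-apoptotic Bcl2, Bcl2l1 and Mcl1, the effectors Bax and Bak1, and the BH3-only genes Bcl2l11, Bbc3, Pmaip1, Bid and Bad. Each name matched 1 gene. MIN6 is a mouse insulinoma line, labelled as C57BL/6, a common stand-in for the pancreatic beta cell. It was derived from mice that carry a viral T antigen driven by the insulin promoter, and that antigen binds p53. Bulk RNA was sequenced from 3 libraries of each medium, 9 in all. Nothing in the labels says whether the 3 libraries of a medium came from separate cultures, and p-values therefore describe the spread among these libraries alone, which may be technical.

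BCL2 family proteins decide whether the outer mitochondrial membrane is opened during apoptosis. BAX and BAK form the pore that lets cytochrome c out, the anti-apoptotic proteins hold BAX and BAK in check, and BH3-only proteins either neutralise the anti-apoptotic proteins or activate BAX and BAK directly. In beta cells the BH3-only proteins are known as links from endoplasmic reticulum stress, p53 and growth factor withdrawal to cell death. Many of these proteins are also controlled after transcription, and the deposited values are per gene, so splice forms of the same gene were not told apart.

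Reads in genes numbered 21550637 to 26300872 per library, and 9338 to 14327 of them fell in the 10 members. The 8 beta cell markers had a summed level of 78600 to 80200 FPKM in low, 73400 to 82000 FPKM in standard and 74900 to 77400 FPKM in high arginine, led by Ins2. None of the 6 fibroblast, 5 immune or 3 endothelial markers passed the filter on low values, 1 FPKM or more in 3 or more libraries. The 5 alpha cell markers, mostly Ttr, summed to 260 to 341 FPKM in low, 890 to 991 FPKM in standard and 892 to 901 FPKM in high arginine. The 4 delta and PP cell markers, mostly Sst, summed to 8720 to 11300 FPKM in low, 5430 to 6210 FPKM in standard and 5720 to 5910 FPKM in high arginine. Their part in the results on low arginine was not tested. In bulk RNA, fewer cells of a type and less RNA per cell cannot be told apart.

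Of the 10 members, 8 passed the filter, each above 1 FPKM in all 9 libraries, while Bid and Pmaip1 did not. FPKM divides by a single length per gene, so setting members side by side assumes that this length fits the splice forms present. In standard arginine Bax was the most abundant at 68.9 ± 6.72 FPKM, followed by Mcl1 at 41.6 ± 0.997 FPKM, Bbc3 at 23.2 ± 1.18 FPKM and Bad at 20.5 ± 2.5 FPKM (SD, n = 3 each). Below them lay Bcl2l1 at 10 FPKM, Bak1 at 4.85 FPKM, Bcl2l11 at 3.6 FPKM, Bcl2 at 1.56 FPKM and Bid at 0.535 FPKM. Neighbours in this order had separate ranges, except Bbc3 and Bad, which overlapped. In low arginine Bbc3 stood above Mcl1, with 51.5 to 55.1 FPKM for Bbc3 and 33.2 to 39.9 FPKM for Mcl1. The order in high arginine was that of standard arginine.

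**Figure D1:**
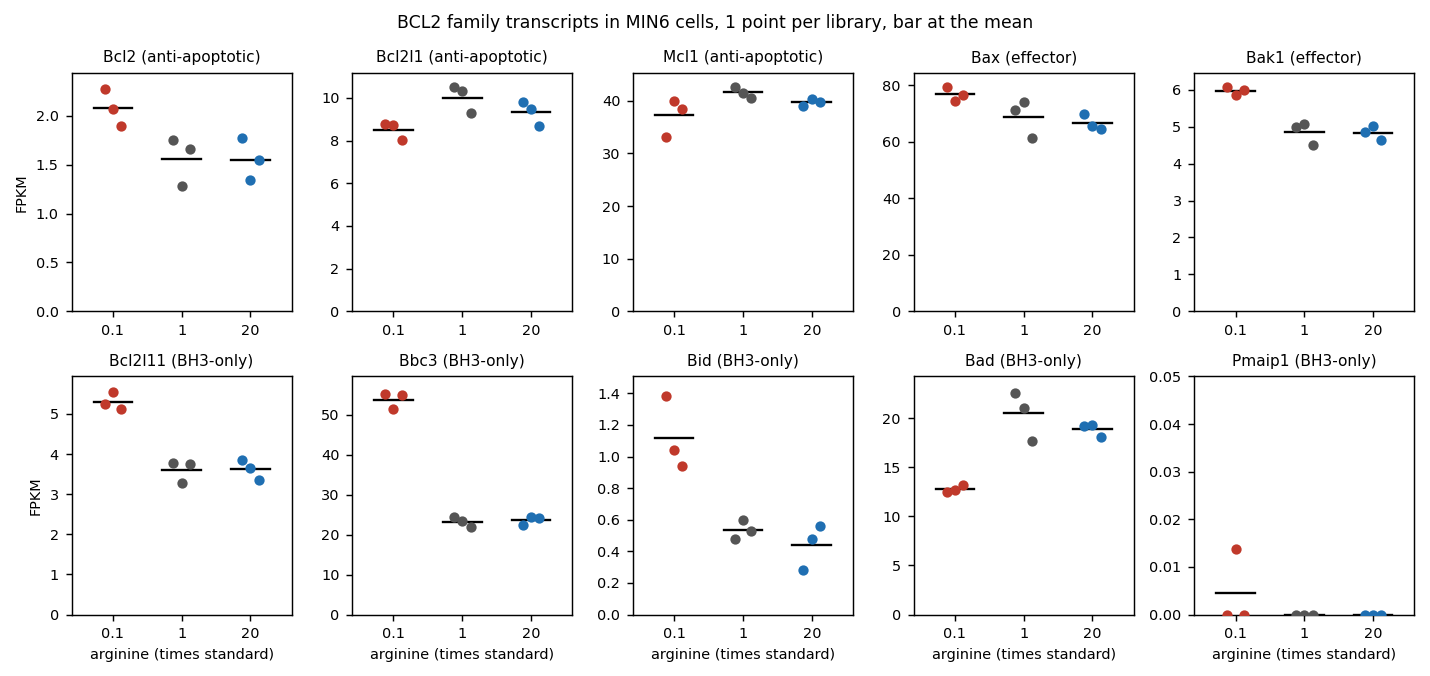
FPKM of the 10 members (vertical axes, each from 0, on its own scale) against arginine in the medium (0.1, 1 and 20 times standard); each point is 1 library and each bar a mean of 3. Bbc3 lies at 51.5 to 55.1 FPKM in low arginine and at 22 to 24.4 FPKM in standard, and Bad lies at 12.5 to 13.2 FPKM in low arginine and at 17.7 to 22.6 FPKM in standard.

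Low against standard arginine addressed the response of these transcripts to arginine shortage. In low arginine the BH3-only genes Bbc3 and Bcl2l11, the effector Bak1 and the anti-apoptotic Bcl2 rose, while the BH3-only gene Bad and the anti-apoptotic Bcl2l1 fell. Bbc3 changed most, with a mean 2.32 times that in standard arginine. Of the 8 members tested, 4 rose and 2 fell (limma on log2(FPKM + 1), Benjamini-Hochberg adjusted p under 0.05 over all 12300 genes tested). Over all genes 62.2% were called in this comparison, 30.3% higher and 31.9% lower, so 6 of 8 is close to that share. At an unadjusted p under 0.05 limma found 7 of 8 members and 65.7% of all genes. In all 8 the low and standard libraries did not overlap in FPKM, which held for 65.4% of all genes. The median log2 change was 0.207 over the 8 members and 0.00114 over all genes.

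Bbc3 encodes PUMA, a BH3-only protein that binds every anti-apoptotic member and is a classical target of p53 (chromosome 7, 16308393 to 16318205, plus strand, GRCm38). It had 55.1, 51.5 and 54.9 FPKM in low, 24.4, 23.3 and 22 FPKM in standard and 22.3, 24.4 and 24.1 FPKM in high arginine. Every low arginine library lay above all the others, and standard and high libraries were intermingled. The reads behind these values numbered 3017 to 3283 in low and 1025 to 1244 in standard arginine. The log2 change in low against standard arginine was 1.18 (SE 0.06, limma adjusted p 9.12e-08), larger than that of 98.9% of all genes tested.

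Bcl2l11 encodes BIM, a BH3-only protein that activates BAX and BAK and is induced by growth factor withdrawal (chromosome 2, 128126038 to 128162547, plus strand). Its levels were 5.26, 5.54 and 5.13 FPKM in low, 3.78, 3.28 and 3.75 FPKM in standard and 3.86, 3.65 and 3.35 FPKM in high arginine. The low arginine libraries again stood apart from the other 6, which overlapped. Bcl2l11 rose by 0.46 on the log2 scale (SE 0.07, limma adjusted p 0.000194), a mean 1.47 times that in standard arginine.

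Bad encodes a BH3-only protein that binds BCL2 and BCL-XL and is held inactive when phosphorylated by AKT (chromosome 19, 6941861 to 6951898, plus strand). It had 12.5, 12.7 and 13.2 FPKM in low, 22.6, 21 and 17.7 FPKM in standard and 19.2, 19.3 and 18.1 FPKM in high arginine. Bad was thus low in all 3 low arginine libraries, opposite in direction to Bbc3 and Bcl2l11. Its log2 change was -0.63 (SE 0.08, limma adjusted p 5.27e-05). Bad is uncertain, since it shares 590 bases with Gpr137 on the opposite strand, and whether the counting used strand is not stated in the sources used here. Gpr137 moved in the same direction, with 10.6 ± 0.544 FPKM in low arginine and 15.2 ± 1.66 FPKM in standard (SD, n = 3 each).

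Bid encodes a BH3-only protein that caspase-8 cleaves to link death receptors to mitochondria (chromosome 6, 120891930 to 120916853, minus strand). It was scarce, at 1.38, 1.04 and 0.94 FPKM in low, 0.481, 0.598 and 0.526 FPKM in standard and 0.279, 0.477 and 0.563 FPKM in high arginine. These values rest on 94 to 129 reads in low, 41 to 44 in standard and 23 to 48 in high arginine. The low arginine libraries lay above the other 6, but 2 of them alone reached 1 FPKM, so Bid was outside the fit. The mean of log2(FPKM + 1) was 0.46 higher in low than in standard arginine, with a two-sided exact permutation p of 0.1, the smallest that 3 against 3 libraries allow. Without a filter limma called Bid higher (adjusted p 0.0101). Bid overlaps Bcl2l13, a more abundant gene, over 913 bases on the other strand. Bcl2l13 moved the other way, with 8.63 ± 0.569 FPKM in low arginine and 10.4 ± 0.57 FPKM in standard (SD, n = 3 each).

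Pmaip1 encodes NOXA, a BH3-only protein that binds MCL1. A single read was found in low arginine replicate 2, and 0 reads in each of the other 8 libraries. A count of 0 allows up to 3 reads, or 0.0403 to 0.0547 FPKM depending on the library. No difference was detectable at this depth.

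Bbc3 and Bcl2l11 were the BH3-only genes called higher in low arginine. Of their upstream windows, only those with a forkhead match are shown. Sequences of 250 bases before annotated starts were available for 9 members in 15 windows (RefSeq, GRCm38.p6), and 3 motifs were searched on both strands: the forkhead core GTAAACA, bound by FOXO factors, the composite of ATF and C/EBP factors TGATGNAA, and the E-box CACGTG. Matches of different motifs did not overlap one another. The forkhead core was found in 2 of the 15 windows and in 3.17% of all 32851 windows of this length. One was upstream of Bcl2l11, 227 to 221 bases before its start at 128126038 on chromosome 2, and the other upstream of a Bbc3 start at 16310261 on chromosome 7, 167 to 161 bases before it and on the reverse strand. The Bcl2l11 window precedes the gene, the Bbc3 window lies inside the span of the gene, and neither covers annotated exon bases. Bbc3 had 3 annotated starts and Bcl2l11 had 2, and the other windows of these genes lacked the core. Capitals mark the forkhead core, in the windows chr2:128125788-128126037 and chr7:16310011-16310260, both on the plus strand.
Bcl2l11: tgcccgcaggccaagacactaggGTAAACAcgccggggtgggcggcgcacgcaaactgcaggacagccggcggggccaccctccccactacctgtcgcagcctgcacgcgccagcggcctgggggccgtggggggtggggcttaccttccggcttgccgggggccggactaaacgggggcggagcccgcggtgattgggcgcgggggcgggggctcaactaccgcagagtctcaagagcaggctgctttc
Bbc3: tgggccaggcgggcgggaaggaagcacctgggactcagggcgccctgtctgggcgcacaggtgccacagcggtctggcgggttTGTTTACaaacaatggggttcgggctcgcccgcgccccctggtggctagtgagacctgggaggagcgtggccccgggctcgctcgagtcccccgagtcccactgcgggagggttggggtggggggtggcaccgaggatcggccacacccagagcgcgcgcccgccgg

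The composite of ATF and C/EBP factors was in 0 of the 15 windows and in 3.45% of all windows. The E-box was in 2, those of Bax and of a Bbc3 start at 16310431, and in 6.02% of all windows. A match describes letters only and is not evidence of binding, and other starts or more distant sequence were not searched.

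Of the effectors, Bak1, whose protein resides on mitochondria (chromosome 17, 27019810 to 27029009, minus strand), had 6.06, 5.85 and 6 FPKM in low, 4.98, 5.07 and 4.49 FPKM in standard and 4.86, 5.02 and 4.63 FPKM in high arginine. All 3 low arginine libraries were above the other 6. Bak1 rose by 0.25 on the log2 scale (SE 0.06, limma adjusted p 0.00326). It lies within Ggnbp1 on the other strand, a gene at a mean of 0.442 FPKM. Bax, whose protein moves from the cytosol to mitochondria on activation (chromosome 7, 45461697 to 45466898, minus strand), had 79.4, 74.4 and 76.7 FPKM in low, 71.2, 74.2 and 61.4 FPKM in standard and 69.9, 65.5 and 64.4 FPKM in high arginine. The low and standard ranges nearly touched. The log2 change of Bax was 0.16 (SE 0.07, limma adjusted p 0.0798), which did not pass the test. It did pass in limma without standard arginine replicate 2 (0.21, adjusted p 0.0348), after rescaling each library to a common sum (TPM; 0.28, adjusted p 0.00162) and under quantile normalization (0.33, adjusted p 0.000696). Without standard arginine replicate 3 the change of Bax was 0.08 (limma adjusted p 0.247), and with array weights 0.10 (limma adjusted p 0.12). In TPM all genes had a median log2 change of 0.115, and 61.6% of all calls were higher, against 48.7% in FPKM.

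Among the anti-apoptotic genes Mcl1, which encodes a short-lived protein (chromosome 3, 95658788 to 95663176, plus strand), was the most abundant. It had 33.2, 39.9 and 38.5 FPKM in low, 42.6, 41.5 and 40.6 FPKM in standard and 39, 40.3 and 39.8 FPKM in high arginine. Each low arginine library was below each standard library in FPKM, with replicate 1 the lowest. The library size that FPKM divides by was 1.048 to 1.077 times the reads in genes in low arginine. In standard arginine it was 0.9621 to 1.016 times, and its part in this separation was not tested. The log2 change was -0.16 (SE 0.07, limma adjusted p 0.0585) and did not pass the test. It passed without low arginine replicate 2 (-0.21, limma adjusted p 0.0291), but the change was -0.08 without low arginine replicate 1 (limma adjusted p 0.211). In TPM it was -0.04 (limma adjusted p 0.609) and under quantile normalization -0.05 (limma adjusted p 0.482).

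Bcl2l1, which encodes BCL-XL (chromosome 2, 152780668 to 152831728, minus strand), had 8.77, 8.71 and 8.04 FPKM in low, 10.5, 10.3 and 9.29 FPKM in standard and 9.8, 9.48 and 8.7 FPKM in high arginine. Low and standard libraries did not overlap, while the high arginine libraries overlapped both. Bcl2l1 fell by 0.21 on the log2 scale (SE 0.07, limma adjusted p 0.0158). The call was lost in TPM (-0.11, limma adjusted p 0.139) and without low arginine replicate 3 (adjusted p 0.0658), standard arginine replicate 1 (adjusted p 0.059) or standard arginine replicate 2 (adjusted p 0.0531).

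Bcl2, the founding member (chromosome 1, 106538178 to 106714274, minus strand), was the lowest of the tested members. It had 2.27, 2.07 and 1.9 FPKM in low, 1.75, 1.28 and 1.66 FPKM in standard and 1.77, 1.34 and 1.55 FPKM in high arginine. Low arginine libraries were above the other 6 by a small margin. Bcl2 rose by 0.27 on the log2 scale (SE 0.10, limma adjusted p 0.0337), on 490 to 546 reads in low and 243 to 384 in standard arginine. The call was lost in limma without low arginine replicate 1 (adjusted p 0.103), low arginine replicate 2 (adjusted p 0.0713) or standard arginine replicate 2 (adjusted p 0.128), with array weights (adjusted p 0.0556) and without a filter (adjusted p 0.093).

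**Figure D2:**
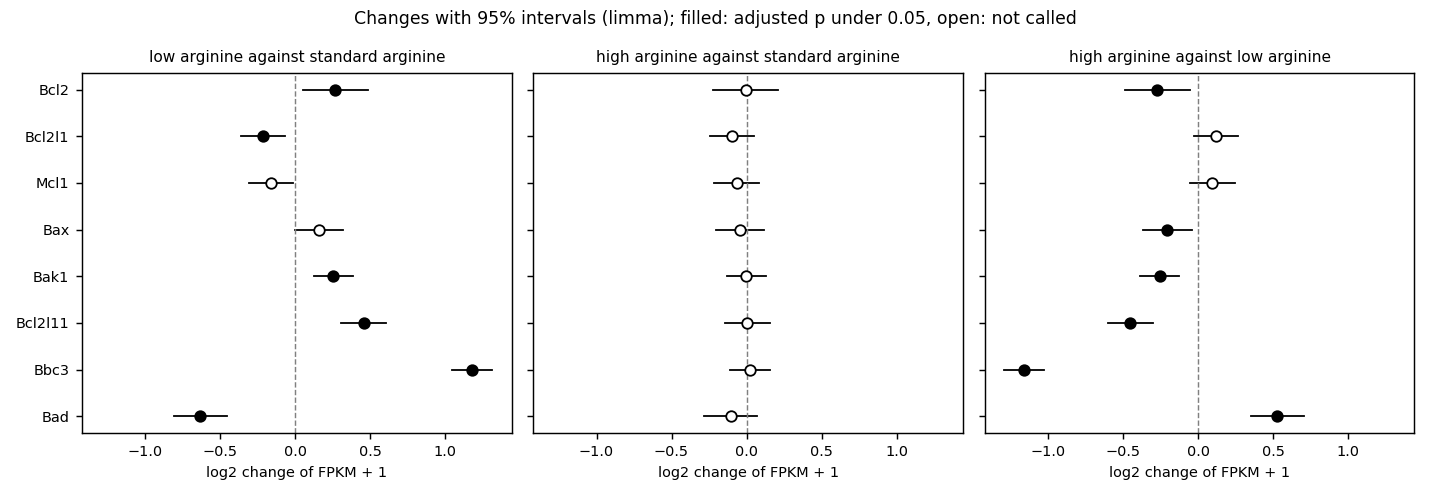
Log2 change of FPKM + 1 (horizontal axis) of the 8 tested members in each comparison, with 95% intervals from limma; filled points passed an adjusted p of 0.05. In low against standard arginine Bbc3 stands at 1.18 and Bad at -0.63, and in high against standard arginine all 8 intervals include 0.

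Summed by role, BH3-only transcripts came to 74.2, 70.8 and 74.2 FPKM in low, 51.3, 48.2 and 44 FPKM in standard and 45.6, 47.8 and 46.1 FPKM in high arginine. The low arginine sums were above all others. The 3 anti-apoptotic genes summed to 47.8 ± 3.24 FPKM in low, 53.2 ± 1.6 FPKM in standard and 50.6 ± 0.551 FPKM in high arginine (SD, n = 3 each). The ratio of the BH3-only to the anti-apoptotic sum was 1.4 to 1.68 in low, 0.853 to 0.936 in standard and 0.902 to 0.935 in high arginine. These sums cover the members alone, and the level of the ratio depends on that choice. They leave out the anti-apoptotic Bcl2l2, with means of 30.8 FPKM in low, 27.6 FPKM in standard and 24.8 FPKM in high arginine. With Bcl2l2 in the sum the ratio would be lower in every medium. BH3-only genes outside the members, such as Hrk and Bik, are left out as well. Within the BH3-only sum, Bbc3 made up 73.7 ± 0.757% in low and 48.6 ± 1.28% in standard arginine, and Bad 17.5 ± 0.608% in low and 42.7 ± 2.1% in standard arginine (SD, n = 3 each). The ratio of Bcl2 to Bax, often used as a summary of the family, was 0.0248 to 0.0286 in low, 0.0172 to 0.0271 in standard and 0.0204 to 0.0254 in high arginine, so low and standard overlapped. These sums and ratios are of transcript levels, rest on the single length per gene, are given as a description and carry no test.

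**Figure D3:**
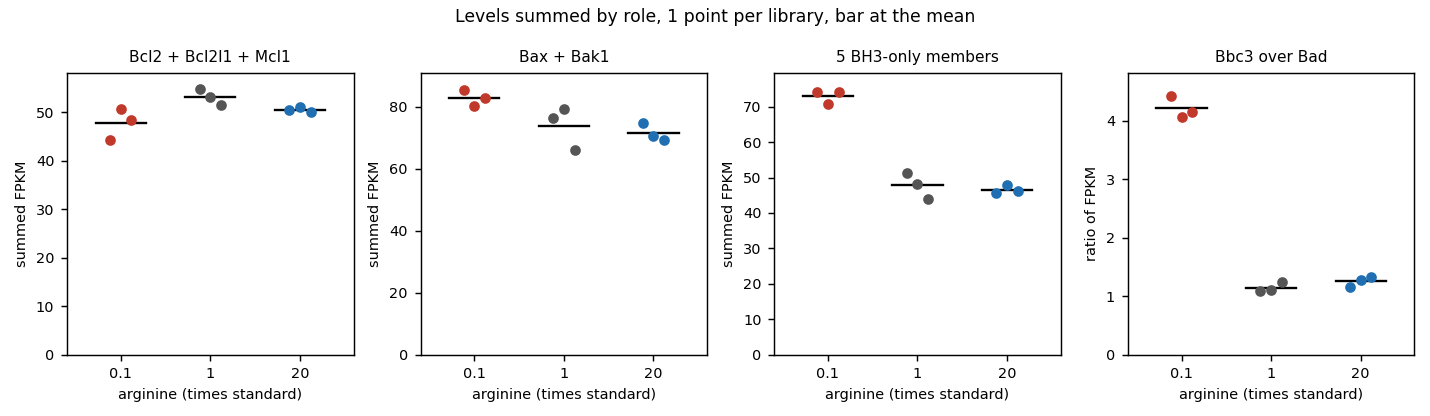
Summed FPKM of the anti-apoptotic, effector and BH3-only members and the ratio of Bbc3 to Bad (vertical axes from 0) against arginine in the medium (0.1, 1 and 20 times standard); points are libraries and bars means of 3. The Bbc3 to Bad ratio is 4.07 to 4.42 in low, 1.08 to 1.24 in standard and 1.16 to 1.33 in high arginine.

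High against standard arginine addressed the response to surplus arginine. None of the 8 tested members passed in high against standard arginine, where 0.309% of all genes did, 0.138% higher and 0.171% lower. This background of 38 genes rested on single libraries and settings. It was 0 without standard arginine replicate 2 or high arginine replicate 3, 1 without high arginine replicate 2, 10 without standard arginine replicate 1, 13 without low arginine replicate 3, 20 without low arginine replicate 2 or high arginine replicate 1, and 61 without standard arginine replicate 3. It was 0 with only the high and standard libraries fitted and 1323 with array weights. In limma 0 members were called after adjustment and 0 had an unadjusted p under 0.05, against 14.3% of all genes; with voom weights 0 were called as well. The smallest adjusted p in limma was 0.545. Log2 changes ran from -0.11 for Bad to 0.02 for Bbc3, with a median of -0.0247 against 0.0138 over all genes. The 95% intervals of the 8 members lay between -0.281 and 0.213, so folds of FPKM + 1 under 0.823 or over 1.16 were outside all of them. Mcl1 alone had high and standard libraries that did not overlap, which held for 18.5% of all genes. Bid had a mean of 0.44 ± 0.146 FPKM in high and 0.535 ± 0.0591 FPKM in standard arginine (SD, n = 3 each; two-sided exact permutation p 0.4).

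High against low arginine is the direct test between both altered media, since the other comparisons share the same 3 standard libraries. Bbc3, Bcl2l11, Bak1, Bcl2 and Bax were lower and Bad was higher in high than in low arginine, 5 and 1 of 8. Of all genes 61.5% were called, 29.2% lower and 32.3% higher. High and low libraries did not overlap in these 6 members, as in 68.4% of all genes. The log2 change was -1.16 (SE 0.06) for Bbc3, -0.45 (SE 0.07) for Bcl2l11, -0.26 (SE 0.06) for Bak1 and 0.53 (SE 0.08) for Bad, and limma adjusted p was at most 0.00316 in these 4. For Bax the change was -0.20 (SE 0.07, limma adjusted p 0.0307) and for Bcl2 -0.27 (SE 0.10, limma adjusted p 0.0317). Both calls were lost in limma without a filter (adjusted p 0.069 for Bax and 0.088 for Bcl2) and without high arginine replicate 2 (0.0856 and 0.119), high arginine replicate 3 (0.0961 and 0.0692) or low arginine replicate 1 (0.0863 and 0.0981). The Bax call was also lost without low arginine replicate 3 (limma adjusted p 0.0692), and the Bcl2 call without low arginine replicate 2 (limma adjusted p 0.0682). Bcl2l1 (0.12, limma adjusted p 0.14) and Mcl1 (0.10, limma adjusted p 0.243) did not pass. Bcl2l1 was higher in high than in low arginine in each of the 3 same-number pairs, and it was called higher with a replicate block (0.12, limma adjusted p 0.035) and with array weights (0.13, limma adjusted p 0.0434). In TPM, where all genes had a median log2 change of -0.104, its change was 0.0069 (limma adjusted p 0.925).

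Genes around the family were taken from 5 lists of textbook knowledge, with 61 of 72 listed genes tested. In low against standard arginine 15 rose and 25 fell, a share close to the 62.2% of all genes, with a median log2 change of -0.0848. Of all genes 30.3% were higher and 31.9% lower, the shares to set beside the counts of each list below. No list was tested as a set. Of 15 other BCL2 family genes 8 were tested, of which 1 rose and 5 fell. Hrk, a BH3-only gene best known from neurons, had 3, 2.75 and 2.57 FPKM in low, 0.513, 0.408 and 0.415 FPKM in standard and 0.439, 0.467 and 0.279 FPKM in high arginine. It rose by 1.38 on the log2 scale (SE 0.09, limma adjusted p 5.46e-07), but passed the filter only through the low arginine libraries where it is high. Bik, a BH3-only gene whose protein sits in the endoplasmic reticulum, had 0.527, 0.433 and 0.402 FPKM in low, 1.8, 1.49 and 1.73 FPKM in standard and 3.3, 2.32 and 3.03 FPKM in high arginine. The 3 groups of Bik values did not overlap, in the order of the arginine supply. Bik was lower in low than in standard arginine (-0.88, SE 0.10, limma adjusted p 3.57e-05), but passed the filter only through the standard and high arginine libraries where it is higher. It did not pass in high against standard arginine (0.53, SE 0.10, limma adjusted p 0.0658).

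Bok, a BAX-like gene, fell to 11.3 ± 0.349 FPKM in low, against 22.9 ± 1.4 FPKM in standard arginine (SD, n = 3 each; log2 change -0.95, SE 0.06). Bnip3 and Bnip3l, whose proteins act in mitophagy, fell by 2.71 (SE 0.10) and 0.99 (SE 0.07) on the log2 scale. Bcl2l2, singled out after its values were seen because it encodes the anti-apoptotic BCL-W, was more abundant than Bcl2l1, at 30.8 ± 2.3 FPKM in low, 27.6 ± 0.659 FPKM in standard and 24.8 ± 0.586 FPKM in high arginine (SD, n = 3 each). It did not pass in low against standard arginine (0.15, limma adjusted p 0.0547) but was lower in high than in low arginine (-0.30, SE 0.06, limma adjusted p 0.00161), with no overlap between those libraries. The 3 Bcl2a1 genes listed had 0 FPKM in the low and standard libraries.

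Of 15 tested genes of the apoptosome, caspases and inhibitors of apoptosis, 4 rose and 5 fell in low arginine. Casp2, an initiator caspase, had 11.6 ± 0.13 FPKM in low arginine and 4.98 ± 0.154 FPKM in standard (SD, n = 3 each). Its log2 change was 1.08 (SE 0.06). Birc5, which encodes survivin, a protein of dividing cells, was at -0.67 (SE 0.10), Endog, a mitochondrial nuclease, at -0.66 (SE 0.08) and Casp8, the initiator that cleaves BID, at -0.48 (SE 0.12). Endog is uncertain, as it overlaps Spout1 on the other strand. Cycs, which encodes cytochrome c, did not pass, with 71 ± 6.49 FPKM in low arginine and 68.1 ± 2.11 FPKM in standard (SD, n = 3 each; 0.06, limma adjusted p 0.547).

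Among 17 genes for partners of BCL2 family proteins, 2 rose and 9 fell in low arginine. Bcap31, an endoplasmic reticulum protein that binds BCL2, fell to 234 ± 10.8 FPKM in low, against 402 ± 14.1 FPKM in standard arginine (SD, n = 3 each). The log2 change was -0.84 (SE 0.09) for Dynll1, a dynein light chain that binds BIM, -0.62 (SE 0.06) for Bag1, a co-chaperone that binds BCL2, -0.60 (SE 0.05) for Tmbim6, a suppressor of BAX, and -0.42 (SE 0.06) for Ywhae, a protein that can retain phosphorylated BAD. The 2 that rose, named after their values were seen, were Vdac3, a channel of the outer mitochondrial membrane, at 0.71 (SE 0.10) and Ywhaz, another gene of the Ywhae family, at 0.34 (SE 0.05). Of 6 tested genes of the death receptor pathway 0 rose and 3 fell, namely Tradd, an adaptor, at -0.84 (SE 0.07), Cflar, an inhibitor of caspase-8, at -0.61 (SE 0.07), and Tnfrsf1a, a receptor for tumour necrosis factor, at -0.39 (SE 0.06).

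Of 15 upstream regulators 8 rose and 3 fell in low arginine, where 30.3% of all genes were higher and 31.9% lower. Ddit3, which encodes the stress factor CHOP, had 141 ± 2.71 FPKM in low arginine and 30.6 ± 3.58 FPKM in standard (SD, n = 3 each). Jun, a subunit of AP-1, had 101 ± 5.56 FPKM in low arginine and 35.7 ± 2.33 FPKM in standard (SD, n = 3 each). Trp53, which encodes p53, had 25 ± 2.5 FPKM in low arginine and 12.2 ± 1.41 FPKM in standard (SD, n = 3 each). Cdkn1a and Mdm2, p53 targets of this list named after their values were seen, changed by -0.44 (SE 0.07) and 0.37 (SE 0.08). A link from p53 to Bbc3 was not tested. Trib3, a pseudokinase induced by CHOP and ATF4, changed by 1.91 (SE 0.09), and Akt2, a kinase of insulin signalling, by -0.64 (SE 0.07). Atf4 (-0.13, limma adjusted p 0.0783) and Foxo3 (0.23, limma adjusted p 0.0507) did not pass. Foxo1, the other FOXO gene of this list, was named after its values were seen. It had 2.89 ± 0.168 FPKM in low arginine and 1.62 ± 0.138 FPKM in standard (SD, n = 3 each). Foxo1 was called higher (0.57, SE 0.07, limma adjusted p 6.49e-05), and a link to the forkhead matches was not tested. Ddit3 is uncertain over the 68 bases it shares with Mars on the other strand. In high against standard arginine 0 of the 61 genes were called in limma, and 11 had an unadjusted p under 0.05, where 0.309% of all genes were called and 14.3% had such a p.

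**Figure D4:**
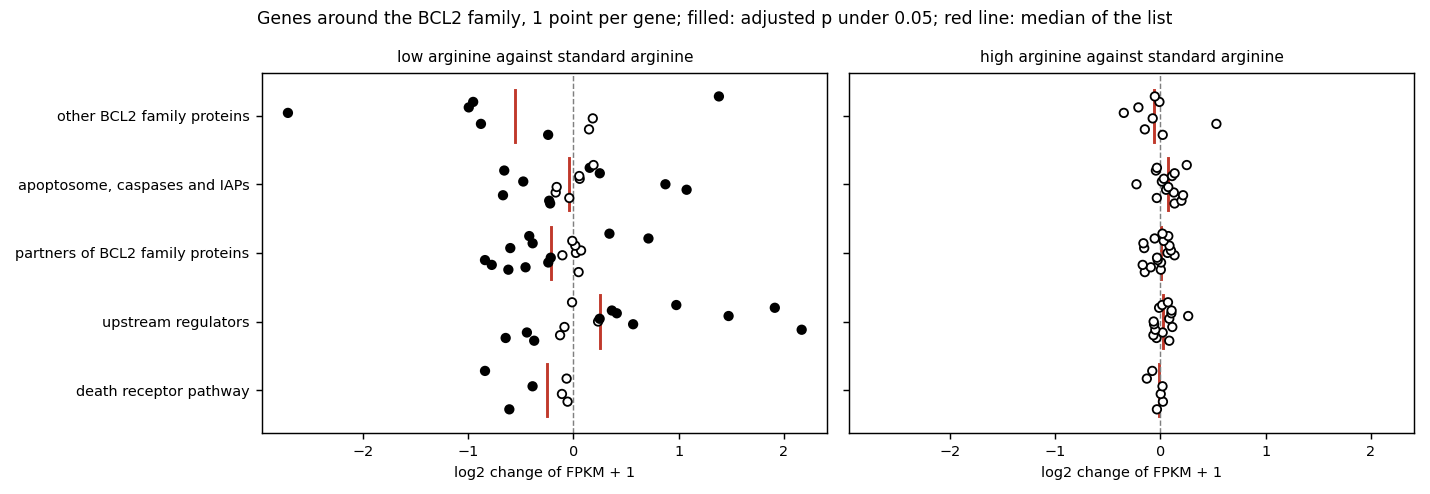
Log2 change of FPKM + 1 (horizontal axis) of the 61 tested genes in 5 lists, in low against standard and in high against standard arginine; each point is a gene, filled where limma's adjusted p was under 0.05, and red lines are medians. In low arginine 40 points are filled, from Bnip3 at -2.71 to Ddit3 at 2.17, and in high arginine none is.

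Genes most like Bbc3 and Bad, the members with the largest rise and fall in low arginine, were ranked by Pearson's r of log2(FPKM + 1) over the 9 libraries among 7021 protein-coding genes. For Bbc3 these were Angptl8 (r = 0.997), Eif1 (0.997), Sox4 (0.997), Klf11 (0.997) and Bcl7b (0.996). For Bad they were Tm2d2 (0.996), Aspscr1 (0.993), Trim41 (0.992), Sh2b3 (0.99) and Ano8 (0.99). Angptl8 averaged 258 FPKM in low, 15.3 FPKM in standard and 15.1 FPKM in high arginine, and Tm2d2 32.8, 47.6 and 45.3 FPKM in the same media. The 9 points fall into 3 media, and 700 genes had an r above 0.95 with Bbc3 and 712 with Bad. Trim41, Sh2b3 and Ano8 are uncertain, as each overlaps a gene on the other strand.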

How the data were processed

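RNA from 9 MIN6 libraries was sequenced with a directional kit, per the labels' protocols. The authors deposited FPKM per gene. CASAVA 1.8, HISAT2 2.0.5 and featureCounts 1.5.0-p3 are named in the submitters' processing notes, together with the build mm9. Against GENCODE M21 (GRCm38), however, 98.33% of 54409 shared IDs had the same start and end, and coordinates are given as GRCm38. FPKM times the deposited gene length moved in whole steps (100% of values, within 0.05 reads), which gave the reads quoted. The library size behind FPKM was 1.048 to 1.077 times the reads in genes in low arginine. It was 0.9621 to 1.016 times in standard and 0.9689 to 0.9943 times in high arginine. Per read in genes, FPKM is thus lower in low arginine, and small changes depend on this scale.

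The filter kept 12300 genes, those reaching 1 FPKM in 3 or more libraries. Using limma 3.58.1 (R 4.3.3, mean-variance trend), log2(FPKM + 1) was fitted over all 9 libraries with group as the only term (6 residual degrees of freedom). Changes of weakly expressed genes are understated on this scale. Tests are two-sided, with p adjusted over all genes tested by Benjamini-Hochberg, with a threshold of 0.05. Models for counts were not applied to FPKM. As an alternative, limma with voom weights was run on the reads recovered from FPKM. Limits for a count of 0 use 3 reads and cover counting error only. Replicates differed beyond sampling noise (chi-square per degree of freedom 2.68 to 13.6), which does not show whether they came from separate cultures. Each library counted separately in the fit. Genes of the 5 pathway lists named in the text were up to 5 called per list with the smallest p in low against standard arginine, plus Ddit3, Trp53, Atf4, Foxo3 and Cycs; genes of like pattern needed a mean FPKM of at least 5. A gene that this rule names is not reported here. The members and lists were chosen with earlier results of these data known. The labels do not state that replicate numbers pair libraries, and the reported fit did not pair them in any comparison. In high against low arginine, deviations of same-number libraries from their group means correlated at 0.24, 0.15 and 0.22. Results with a replicate block are therefore given beside the reported ones. The procedure was also run on simulated reads, with far fewer changed genes than were called here and a fixed spread among replicates. That run gives no error rate for these data.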

Additional observations from a re-analysis of the deposited data

How the results depend on the processing

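Across the alternatives run, 400 log2 changes of members kept their side of the threshold, 19 lost a call and 10 gained one. In all, 0 calls reversed. Uncalled changes that switched sign count as kept, as for Mcl1 in high against low arginine. Mcl1 was at 0.0952 in the reported fit, -0.0298 under quantile normalization and -0.0272 in TPM. The gains include Bid in low against standard and high against low arginine, without a filter. Its reported exact permutation p of 0.1 is the smallest possible and cannot pass, so these gains reflect a change of test. The calls of Bbc3, Bcl2l11, Bak1 and Bad in low against standard arginine held in every alternative that tested them, at 1.14 to 1.33, 0.40 to 0.63, 0.21 to 0.40 and -0.73 to -0.54 on the log2 scale. A mean FPKM of at least 5, which leaves 6 members, gave 2 higher in low against standard and 3 lower in high against low arginine. Of all 7426 genes under that filter, 2328 were higher and 2190 lower in these comparisons. In TPM 1 member, Bad, was lower in low against standard arginine, while Bcl2, Bak1, Bcl2l11, Bbc3 and also Bax were higher. Of all 12300 genes 3018 were lower and 4843 higher in TPM. Array weights gave 2 members higher in high against low arginine, where 4431 of all 12300 genes were higher. Of the pathway genes in high against standard arginine they gave 3 higher and 4 lower of 61, where 1323 of all 12300 genes were called. The cause was not tested. Leaving out 1 library gave 3 to 4 members higher and 1 to 3 lower in low against standard arginine, and 1 higher and 3 to 5 lower in high against low arginine; for pathway genes it gave 14 to 16 and 24 to 26, and 24 to 28 and 14 to 18. In high against standard arginine it gave 0 of each. Of all 12300 genes, leaving out 1 library gave 3333 to 3712 higher and 3568 to 3933 lower in low against standard arginine. For high against low arginine these ranges were 3601 to 4120 and 3234 to 3758.

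With a replicate block Mcl1 (-0.16, limma adjusted p 0.0447) and Bax (0.16, limma adjusted p 0.0438) passed in low against standard arginine and Bcl2l1 (0.12, limma adjusted p 0.035) in high against low arginine. So 2 members were higher in high against low arginine, and 1 pathway gene was higher in high against standard arginine. Of all 12300 genes, 4194 and 46 were higher in these comparisons with the block. The block changed no other call of a member. In low against standard and high against standard arginine, same-number correlations of deviations ran from -0.036 to 0.2 and not all were over 0.1. However, 8 of 9 libraries correlated best with their own number. Whether the numbers pair libraries is therefore not settled in any comparison. Depth limits Bid and Pmaip1, the members with the fewest reads.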
